A study of Mus musculus with 18 samples.

Results

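The genes described here encode the proteins of the cytosolic ribosome, and they were taken by symbol from a table of 51499 transcribed loci in mouse embryonic fibroblasts. A locus was a member when one of its symbols was Rpl or Rps followed by a number and at most one letter (a, l, x or y), or was Rplp0 to Rplp2 or Rpsa. This rule used no measured value and found 82 loci, 50 with a large subunit symbol and 32 with a small subunit symbol. Rps3a1 and Fau are not taken by the rule, and Rpl13 was not analysed here.

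The study asked how the Argonaute protein AGO2 bears on transcript levels when the endoplasmic reticulum is stressed. Fibroblasts labelled Ago2+/+ or Ago2-/- received DMSO, the solvent, or tunicamycin, which blocks N-linked glycosylation, or thapsigargin at 500 nM, which blocks the calcium pump of the endoplasmic reticulum. This made 6 groups of 3 libraries each: Ago2+/+ DMSO, Ago2+/+ tunicamycin, Ago2+/+ thapsigargin, Ago2-/- DMSO, Ago2-/- tunicamycin and Ago2-/- thapsigargin. The table gives 1 FPKM (fragments scaled to transcript length and to the number mapped in the library) per locus and group, pooled over the 3 libraries, so no value below has a replicate error and no difference was tested. In such bulk samples fewer cells that express a gene and less RNA per cell cannot be told apart. The study names a fibroblast line for each genotype, so genotype and line cannot be told apart. Some loci described below, among them Rpl29 and Xist, also differed widely between groups of the same label. Whether each label marks a single line was not tested.

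The ribosome has a large subunit, which joins amino acids, and a small subunit, which reads the messenger RNA. The ribosomal proteins are built in near-equal amounts, and their messenger RNAs are among the most abundant in growing cells. Most of these messenger RNAs begin with a run of pyrimidines, through which mTOR signalling and the RNA-binding protein LARP1 control their translation. Mammalian genomes also hold many processed pseudogenes of these genes, which are copies of the spliced messenger RNA placed elsewhere in the genome and often nearly identical to it.

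The labels and the levels of Ago2 did not match throughout. In cells labelled Ago2+/+ the Ago2 locus had 22.1 FPKM with DMSO, 5.75 with tunicamycin and 17.0 with thapsigargin. In cells labelled Ago2-/- it had 5.61, 15.5 and 20.7 FPKM with the same agents. The 2 lowest values thus carried different genotype labels, and each genotype below is the labelled one. Library titles name the groups called Ago2+/+ here DCR1 and those called Ago2-/- AGO2, and do not spell out the genotype. For 4 of the 18 libraries the labels themselves gave both genotypes. Of 9 fibroblast markers 8 passed a mean of 1 FPKM, their summed level ranged from 2999.5 to 3955 FPKM over the groups, and Thy1 was listed at 0 in all 6. The sum was mostly Vim and the merged locus of S100a4, and single markers differed widely. Col1a1 ranged from 5.97 FPKM in Ago2-/- DMSO to 651 FPKM in Ago2-/- tunicamycin, and Fn1 ranged from 46.4 to 599.5 FPKM. Of the 5 markers alone at their locus and past that mean, 4 differed by 2 times or more in each of the 7 contrasts described below. The part of these marker differences in the values of the ribosomal protein genes was not tested. Of 11 markers of epithelial, blood, endothelial and neural cells, 10 were measured at a single locus (not Tubb3) and only Cd68 passed, and their summed level was 1.59 to 2.63 FPKM.

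Of the 82 loci, 58 were listed with a single gene identifier (34 large, 24 small) and are called alone, and 24 were merged with another gene. Alone refers to this listing, and whether other genes overlap the span of such a locus was not examined. In 22 of the 24 the other genes included small nucleolar RNAs, 28 in all, which lie in introns of ribosomal protein genes. The locus of Rpl24 also held the coding gene Zbtb11, that of Rpl13a the coding genes Flt3l and Gm45713, and that of Rpl19 a non-coding transcript and a miRNA. The value of a merged locus cannot be split between its genes. At 19 of the 82 loci the locus was over 5 kb longer than the annotated gene, among them Rpl35a, Rpl31 and Rpl12.

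A mean of at least 1 FPKM over the 6 groups was reached by 77 of the 82 members, 53 of them alone at their locus (30 large, 23 small), and by 11929 of all loci. The 5 that did not were Rpl3l, Rpl10l, Rpl39l, Rpl32l and Rps4l. Rpl3l, a muscle paralogue of Rpl3, had 0.0793 FPKM at most while Rpl3 had 768 to 917 FPKM. Rpl10l and Rpl39l, paralogues known from the testis, were listed at 0 in all 6 groups, beside 1152 to 1649 FPKM at the merged locus of Rpl10 and 513 to 655 FPKM for Rpl39. Rps27l, a paralogue of Rps27 known as a p53 target, was expressed, with 206 to 339 FPKM beside 1241 to 1967 FPKM for Rps27. Rpl6l, Rpl32l and Rps4l are annotated as pseudogenes, and of these only Rpl6l passed, with 87.8 to 158 FPKM. Rps4l had 0.0665 FPKM at most beside 1343 to 1611 FPKM for Rps4x, the X-linked gene of the same protein family.

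The ribosomal protein genes stood at the top of the distribution in every group. The median of the 53 members alone at their locus was 985, 1087 and 957 FPKM in the DMSO, tunicamycin and thapsigargin groups of Ago2+/+ cells and 1147, 814 and 995 FPKM in those of Ago2-/- cells. Between 99.85% and 99.86% of all loci lay below that median. All 82 loci together held 12.4% (Ago2-/- tunicamycin) to 13.8% (Ago2+/+ thapsigargin) of the summed FPKM of the table, and the 58 alone at their locus held 8.45% to 9.42% in the same groups. The share varied less between groups than the levels of single members.

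Small subunit genes had the higher median in each group. For members alone at their locus the median was 605 FPKM (Ago2-/- tunicamycin) to 936 FPKM (Ago2-/- DMSO) for the large subunit and 969 to 1229.8 FPKM for the small subunit in the same 2 groups. The summed levels, over 34 large and 24 small subunit loci, were closer, at 24627 to 30627 FPKM for the large and 22852 to 28343 FPKM for the small subunit. The ratio of the large to the small sum stayed between 1.06 and 1.09 over the 6 groups. The ratio of the large to the small median varied more, from 0.605 to 0.771. In Ago2+/+ cells, for instance, the large median was 848 FPKM with DMSO and 744 FPKM with thapsigargin, while the small median was 1099 and 1229 FPKM. Ago2-/- tunicamycin had the lowest sum and the lowest median for both subunits. The summed FPKM of all loci was also lowest there, at 561944 FPKM, against 569330 to 644190 FPKM in the other groups. Members alone at their locus held 8.45% of that total, against 9.30% in Ago2-/- DMSO.

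**Figure D1:**
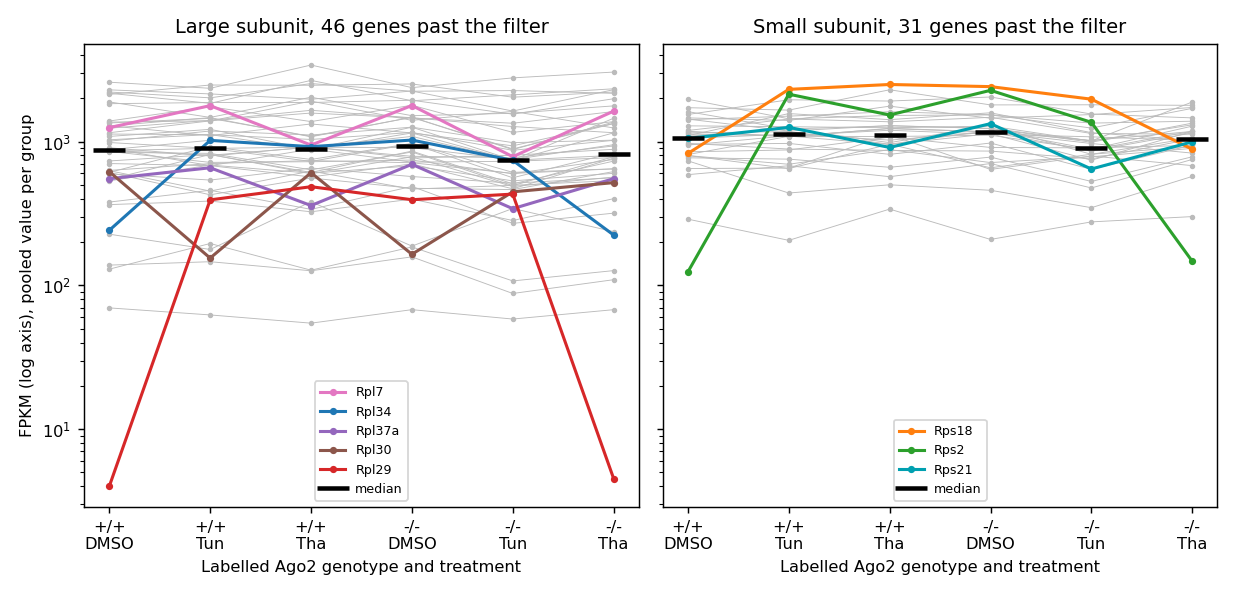
FPKM (log axis, pooled value per group) of the 46 large (left) and 31 small (right) subunit genes past the filter in the 6 groups; lines join the values of a gene, coloured lines mark the 8 genes past a 2-fold difference in a contrast and black bars mark group medians. Most genes run flat, while Rpl29 lies at 393 to 485 FPKM in 4 groups and at 4.01 and 4.54 FPKM in Ago2+/+ DMSO and Ago2-/- thapsigargin.

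Among large subunit genes alone at their locus the highest mean levels belonged to Rplp1 (2753 FPKM), Rpl8 (2304), Rpl41 (2236), Rpl26 (1708) and Rplp0 (1453). Rplp0, Rplp1 and Rplp2 form the acidic stalk that recruits elongation factors. Rplp1 ranged from 2345 to 3403 FPKM and Rplp0 from 1152 to 1909.6 FPKM. At their own loci, without the near copies described below, both were highest in Ago2+/+ thapsigargin. Rplp2, at a locus merged with Snora52, ranged from 740.3 to 1149 FPKM and was highest in Ago2-/- thapsigargin. Apart from the 4 members near 0, the lowest mean was that of Rpl17, at 63.4 FPKM.

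Among small subunit genes alone at their locus the highest means were those of Rps15 (1841 FPKM), Rps18 (1815), Rps24 (1743), Rps27 (1566) and Rps4x (1466). The lowest above the filter were Rps27l (269.8 FPKM), Rps27a (508), Rps7 (628) and Rps26 (799.9). Rps27a encodes a ribosomal protein fused to ubiquitin. Rpsa, the laminin receptor homologue, lay at a locus merged with a small nucleolar RNA and ranged from 1402 to 1762 FPKM.

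Within single genes the highest group exceeded the lowest by less than 1.5 times in 42 of the 77 members past the filter, and by 2 times or more in 10. The 10 were Rpl7, Rpl15, Rpl29, Rpl30, Rpl34, Rpl37a, Rps2, Rps18, Rps21 and Rps27a. Rpl19 is a common reference gene of expression studies, and its merged locus had 1285, 1467 and 1079 FPKM in the DMSO, tunicamycin and thapsigargin groups of Ago2+/+ cells and 1475, 888 and 1333 FPKM in those of Ago2-/- cells. Its highest value was 1.66 times its lowest, which lies above the range of most members.

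Rpl29, a heparin-binding component of the large subunit, differed most. It lies at chr9:106429454-106431568 (GRCm38, plus strand) and had only 4.01 FPKM in Ago2+/+ DMSO and 4.54 FPKM in Ago2-/- thapsigargin. In the other groups it had 393 (Ago2+/+ tunicamycin), 485 (Ago2+/+ thapsigargin), 394 (Ago2-/- DMSO) and 431 FPKM (Ago2-/- tunicamycin). It was thus nearly absent in a group of each labelled genotype, and the highest value was 121 times the lowest. No other member came near this range.

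Rps2, Rpl34 and Rps18 were low in the same pair of groups. Rps2, whose protein lies near the messenger RNA entry site, had 124 FPKM in Ago2+/+ DMSO and 147 in Ago2-/- thapsigargin, and 2134, 1530.0, 2270.1 and 1361 FPKM in Ago2+/+ tunicamycin, Ago2+/+ thapsigargin, Ago2-/- DMSO and Ago2-/- tunicamycin. Its locus is merged with that of Snora64. Rpl34 had 241 and 224 FPKM in the 2 low groups and 1019, 921, 1024 and 739.9 FPKM in the others, in the same order. Rps18, of the head of the small subunit, had 826 and 884 FPKM against 2306, 2493, 2409 and 1970.4 FPKM.

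Rpl30, at a locus merged with a small nucleolar RNA, was low in another pair of groups. It had 155 FPKM in Ago2+/+ tunicamycin and 165 in Ago2-/- DMSO, against 618 in Ago2+/+ DMSO, 607 in Ago2+/+ thapsigargin, 447 in Ago2-/- tunicamycin and 518 in Ago2-/- thapsigargin. Rpl15, at the same time, was highest in yet another pair, with 382 FPKM in Ago2+/+ thapsigargin and 342 in Ago2-/- tunicamycin, against 178 to 236 FPKM in the other groups.

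Rpl7, Rpl37a and Rps21 were lowest in Ago2-/- tunicamycin. Rpl7 had 785 FPKM there and 945 FPKM in Ago2+/+ thapsigargin, against 1249, 1777, 1780.5 and 1627 FPKM in Ago2+/+ DMSO, Ago2+/+ tunicamycin, Ago2-/- DMSO and Ago2-/- thapsigargin. Rpl37a had 341 and 359 FPKM in the same 2 groups, against 551, 657, 694 and 552 FPKM. Rps21 had 644 and 909.8 FPKM, against 1051, 1254, 1331 and 995 FPKM. Rpl7 and Rpl37a both lie on chromosome 1 and Rps21 on chromosome 2.

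To compare groups, the log2 ratio of FPKM + 1 was taken for tunicamycin or thapsigargin over DMSO within each labelled genotype and for Ago2-/- over Ago2+/+ within each treatment, which gives 7 contrasts that share groups with each other. A locus was called past the fold at a ratio of 2 or more in either direction. Among the 53 members alone at their locus, tunicamycin over DMSO in Ago2+/+ cells had 3 members past the fold beside 14% of all loci, and all 3 were higher (Rpl29, Rpl34 and Rps18, at log2 ratios of 6.30, 2.07 and 1.48). Thapsigargin over DMSO in Ago2+/+ cells had the same 3 names past the fold, all higher, at 6.60, 1.93 and 1.59, beside 12.9% of all loci. Both contrasts share the Ago2+/+ DMSO group, in which these genes were low.

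In Ago2-/- cells tunicamycin over DMSO had 3 members past the fold, all lower, beside 17.9% of all loci. They were Rpl7 (-1.18), Rps21 (-1.05) and Rpl37a (-1.02). Thapsigargin over DMSO in Ago2-/- cells had 3 past the fold beside 14.3% of all loci. Here Rpl29 (-6.16), Rpl34 (-2.19) and Rps18 (-1.45) were lower, opposite in sign to the same stressor in Ago2+/+ cells.

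For Ago2-/- over Ago2+/+ the DMSO groups had 3 members past the fold, all higher, beside 14.4% of all loci. These were Rpl29 (6.30), Rpl34 (2.08) and Rps18 (1.54). The tunicamycin groups had 1, Rpl7 (-1.18), beside 17.3% of all loci, and the thapsigargin groups had 3 lower, Rpl29 (-6.46), Rpl34 (-2.04) and Rps18 (-1.5), beside 13.8% of all loci. In each of the 7 contrasts the members' share past the fold, 1.89% to 5.66%, was below that of all loci. Loci averaging 100 FPKM or more, a level that most members share, were past the fold in 7.37% to 11.0% over the 7 contrasts.

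The merged loci added Rps2 and Rpl30 to these names and no other. Rps2 had log2 ratios of 4.09, 3.61, -3.94, 4.18 and -3.37 where Rpl29 was called, in the order given above. Rpl30 had -1.99 for tunicamycin over DMSO in Ago2+/+ cells, 1.44 and 1.65 for tunicamycin and thapsigargin over DMSO in Ago2-/- cells, -1.90 for Ago2-/- over Ago2+/+ in DMSO and 1.52 in tunicamycin. The sign of its ratio for tunicamycin thus differed between the labelled genotypes.

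At a fold of 1.5 the members' count was highest where tunicamycin-treated Ago2-/- cells were compared. It was 13 of 53 for tunicamycin over DMSO in Ago2-/- cells, 12 of them lower, beside 36.9% of all loci, and 13 of 53 for Ago2-/- over Ago2+/+ in tunicamycin, again 12 lower, beside 35.8%. These percentages count both directions. Lower by this fold were 2092 and 2044 of the 11929 loci, and 193 and 170 of the 1017 averaging 100 FPKM or more. The 12 lower names were the same in both contrasts, which share the Ago2-/- tunicamycin group: Rpl6l, Rpl7, Rpl18, Rpl22, Rpl23, Rpl27, Rpl31, Rpl35, Rpl37a, Rpl38, Rps14 and Rps21. The other counts were 5 beside 29.2% and 7 beside 27.5% for tunicamycin and thapsigargin over DMSO in Ago2+/+ cells, and 6 beside 31.2% for thapsigargin over DMSO in Ago2-/- cells. For Ago2-/- over Ago2+/+ they were 5 beside 29.4% in DMSO and 8 beside 28.3% in thapsigargin.

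The bulk of the genes shifted little, except in Ago2-/- tunicamycin. The median log2 ratio of the 53 members was 0.08 and 0.04 for tunicamycin and thapsigargin over DMSO in Ago2+/+ cells, and -0.34 and -0.05 in Ago2-/- cells. For Ago2-/- over Ago2+/+ it was 0.13 in DMSO, -0.28 in tunicamycin and -0.06 in thapsigargin. The median of all loci past the filter lay between -0.03 and 0.01 in each contrast. For tunicamycin over DMSO in Ago2-/- cells, 43 of the 53 members were lower, beside 5926 of the 11929 loci past the filter. Of the loci averaging 100 FPKM or more, 615 of 1017 were lower. The members' medians were -0.35 for the large and -0.31 for the small subunit. The spread differed for these members alone at their locus. Of them, 10 of 30 large and 2 of 23 small subunit genes were lower by 1.5 times or more, and the lower quartiles were -0.73 and -0.42. Merged loci did not show this difference, with 5 of 16 large and 3 of 8 small lower by that fold. Their lower quartiles were -0.63 and -0.61. The difference between the subunits was not tested. Loci averaging 100 FPKM or more had a median of -0.14 in that contrast and of -0.13 for Ago2-/- over Ago2+/+ in tunicamycin.

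**Figure D2:**
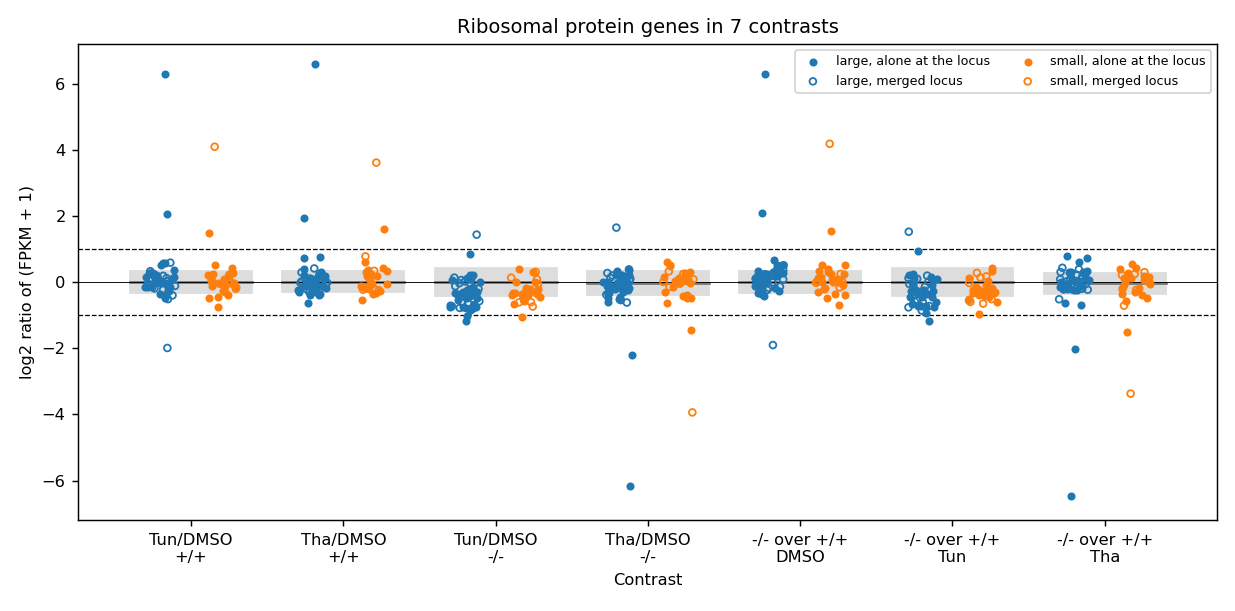
log2 ratio of FPKM + 1 of the ribosomal protein genes past the filter (points; filled for genes alone at their locus, open for merged loci) in the 7 contrasts; grey boxes span the middle of all 11929 loci from the lower to the upper quartile and dashed lines mark a ratio of 2. The points sit around 0 except for a few genes, and the cloud is lower, with a median of -0.32 over the 77 genes, for tunicamycin over DMSO in Ago2-/- cells.

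Over all 15 pairs of groups the members were closest between groups of different label. The median absolute log2 ratio of the 53 members was 0.05 between Ago2+/+ tunicamycin and Ago2-/- DMSO, with 0.15 as the highest of any member, and 0.09 between Ago2+/+ DMSO and Ago2-/- thapsigargin, with 0.42 as the highest. No member was past 2-fold in either pair. Ago2+/+ thapsigargin and Ago2-/- tunicamycin were 0.29 apart, farther than several pairs of the same label, yet with 0.53 as the highest. For all loci past the filter the medians of the 3 pairs were 0.08, 0.15 and 0.11.

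Part of the low levels was matched by high levels of near-identical loci. Near copies were sought by aligning the coding sequence of each member to all annotated transcripts and keeping loci alone at their position with at least 90% identity over at least 80% of it. This found 898 loci, each assigned to the member with the highest identity. Of these 258 passed the filter, 246 of them annotated as pseudogenes and 11 as coding, and 73 of the 77 members past the filter had at least 1. No source used here says how reads that match several loci were counted, so values of a member and its near copies are uncertain as to their split.

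The 4 pairs of a low member and its most abundant near copy are shown over 120 bases of coding sequence (from GENCODE transcripts on GRCm38), because so few bases tell the loci apart. Positions count from 1 at the first base of the member's start codon, and capitals mark the bases that differ. The Rps18 pair (positions 312 to 431) differs by A337C, G371A and G431A, the member's base first, and by 4 bases over the whole 459.

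Rps18: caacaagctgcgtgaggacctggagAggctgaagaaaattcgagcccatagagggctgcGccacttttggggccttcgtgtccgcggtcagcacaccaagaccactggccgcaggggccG
Gm10260: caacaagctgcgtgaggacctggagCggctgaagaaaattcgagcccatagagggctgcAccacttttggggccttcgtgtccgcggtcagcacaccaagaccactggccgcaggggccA

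The Rpl34 pair (positions 13 to 132) differs there by T132C and by 2 of 354 bases in all.

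Rpl34: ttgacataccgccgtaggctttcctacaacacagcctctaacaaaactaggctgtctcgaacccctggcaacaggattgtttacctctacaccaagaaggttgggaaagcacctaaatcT
Rpl34-ps1: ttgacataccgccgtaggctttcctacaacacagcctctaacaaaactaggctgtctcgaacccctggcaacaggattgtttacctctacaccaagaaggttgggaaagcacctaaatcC

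The Rpl29 pair (positions 1 to 120) differs by C72A and by 3 of 483 bases in all.

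Rpl29: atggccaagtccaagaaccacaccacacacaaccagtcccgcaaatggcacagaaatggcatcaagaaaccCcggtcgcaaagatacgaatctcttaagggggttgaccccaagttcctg
Gm13841: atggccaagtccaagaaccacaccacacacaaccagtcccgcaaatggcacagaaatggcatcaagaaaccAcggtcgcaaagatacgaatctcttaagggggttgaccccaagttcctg

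The Rps2 pair (positions 1 to 120) differs by T60A and A84G and by 7 of 882 bases in all.

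Rps2: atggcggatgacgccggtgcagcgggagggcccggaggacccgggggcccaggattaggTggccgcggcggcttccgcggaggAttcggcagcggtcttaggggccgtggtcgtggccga
Rps2-ps13: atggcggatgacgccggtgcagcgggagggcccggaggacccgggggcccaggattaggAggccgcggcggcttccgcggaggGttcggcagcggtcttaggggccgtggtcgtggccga

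Gm10260, annotated as coding at chr13:97751112-97760965, is 99.1% identical to Rps18. It had 1079.6 FPKM in Ago2+/+ DMSO and 1255 in Ago2-/- thapsigargin, the groups in which Rps18 was low, and 6.09 to 8.48 FPKM in the other 4. Rpl34-ps1, a processed pseudogene at chr6:71124610-71124963, had 1029 and 891 FPKM in these groups and 138 to 255 FPKM in the others. Rps2-ps13, at chrX:52898588-52899469, had 957 and 1013 FPKM against 149 to 267 FPKM. All 3 copies thus stood high where their parents stood low.

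For Rpl29 the picture was mixed. Gm13841, a processed pseudogene at chr5:115801677-115802159, had 498 and 467 FPKM in the low groups of Rpl29 and 256 to 310.0 FPKM in the other 4. Gm6344, with 99.4% identity to Rpl29, instead had 2.36 and 2.15 FPKM where Rpl29 was low and 42.6 to 55.4 FPKM elsewhere. Gm43471 (0.154 and 0.0571 against 43.4 to 52.8 FPKM) and Gm11449 (0.395 and 0.321 against 22.3 to 29.0 FPKM) were low with Rpl29 as well.

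The loci named as pseudogenes of the called members differed in the same way. Rps18-ps3 was high where Rps18 was low (15.8 and 13.8 against 2.51 to 5.51 FPKM), while Rps18-ps1 was low with it (0.222 and 0.579 against 5.08 to 6.49 FPKM). Rpl34-ps2 had 6.44 and 6.81 FPKM against 1.24 to 2.26 FPKM. Rps2-ps10 was high (139 and 105 against 12.3 to 25.2 FPKM), and Rps2-ps6 and Rps2-ps9 were low (0.500 to 1.73 against 4.80 to 31.5 FPKM). Rpl30-ps1 and Rpl30-ps10 were low with Rpl30, at 1.60 to 3.20 FPKM in its 2 low groups and 16.3 to 69.0 FPKM in the others. Rpl7-ps7 stood at 1.3 to 3.29 FPKM and was lowest in Ago2-/- tunicamycin, as Rpl7 was.

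Adding the FPKM of the near copies to that of the member narrowed most of these ranges. The sum for Rps18 was 2129, 2422, 2612, 2523, 2067 and 2406 FPKM in the 3 Ago2+/+ and the 3 Ago2-/- groups (DMSO, tunicamycin, thapsigargin), 1.26 times from lowest to highest instead of 3.02. For Rpl34 it was 1283, 1218, 1196, 1194, 960.1 and 1135 FPKM, 1.34 times instead of 4.57. For Rps2 it was 1522, 2929.6, 2029.9, 2782, 1979 and 1623 FPKM, 1.92 times instead of 18.3, and for Rpl15 the range went from 2.15 to 1.22 times. Rplp0 with its copies was highest in Ago2-/- thapsigargin (2882 FPKM), against 2651 FPKM in Ago2+/+ thapsigargin. Its range went from 1.66 to 1.27 times.

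The sum for Rpl29 kept a difference. It was 537 FPKM in Ago2+/+ DMSO and 509.6 in Ago2-/- thapsigargin, against 794 to 973 FPKM in the other 4 groups, so the same groups stayed lowest. Rpl30 with its copies was still lowest in Ago2+/+ tunicamycin (706 FPKM) and Ago2-/- DMSO (774 FPKM), against 1063 to 1410.3 FPKM in the others. Rpl7 and Rps21 hardly changed, since their copies held 6.08% and 3.49% of the sum.

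Over the 77 members the near copies held a median of 16.0% of the sum, and they exceeded the member itself for 9: Rpl7a, Rpl15, Rpl17, Rpl21, Rpl23a, Rpl29, Rpl30, Rpl41 and Rps27a. For Rpl17, the lowest member past the filter, they held 87.8%. Members with a range of 2 times or more numbered 10 alone and 4 with copies added. Of the 4, Rpl7 and Rps21 had such a range on their own, while Rpl41 and Rpl7a gained it from a copy. Gm10180, identical to the coding sequence of Rpl41, had 1026 FPKM in Ago2+/+ DMSO and 5269.9 in Ago2+/+ thapsigargin, and Rpl7a-ps11 had 828 FPKM in Ago2-/- DMSO and 6.95 in Ago2-/- tunicamycin. FPKM is scaled to length, and sums over loci of unequal length are only approximate.

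**Figure D3:**
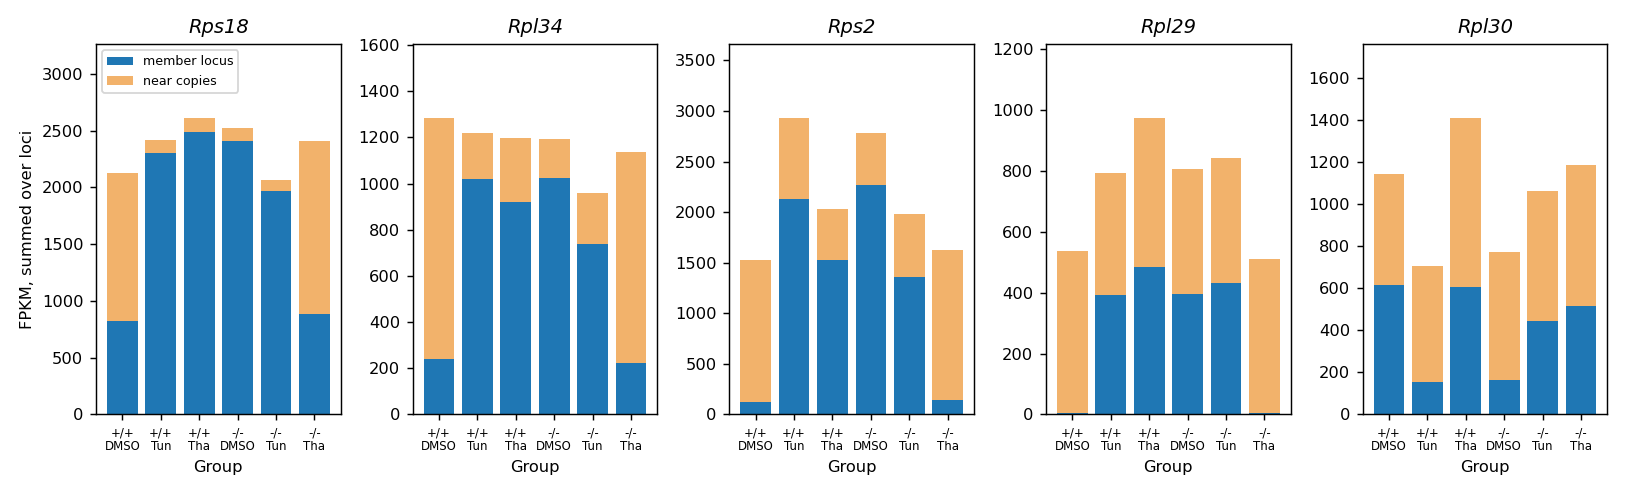
FPKM of 5 members (blue) with the summed FPKM of their near copies stacked on top (orange) in the 6 groups, on linear axes that start at 0. The blue bars of Rps18, Rpl34, Rps2 and Rpl29 are short in Ago2+/+ DMSO and Ago2-/- thapsigargin; the whole bars of Rps18 and Rpl34 vary by 1.26 and 1.34 times, while those of Rpl29 and Rpl30 stay uneven.

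Differences of members had the direction of the other loci on the same chromosome to a degree that varied by contrast. A member's ratio had the sign of the other loci's median for 45 to 66 of the 77 members. For tunicamycin over DMSO in Ago2-/- cells all 3 members on chromosome 1 (Rpl7, Rpl31 and Rpl37a) and all 4 on chromosome 2 (Rpl7a, Rpl12, Rpl35 and Rps21) were lower, with medians of -1.02 and -0.77. The other loci of these chromosomes had medians of -0.36 and -0.36, which were the lowest of any chromosome with members. On chromosomes 9, 10 and 16 the members had medians of 0.08, 0.02 and 0.05 beside 0.28, 0.34 and 0.33 for the other loci. On chromosome 7, which holds 14 members, all 14 were lower (median -0.46), beside -0.09 for the other loci, and chromosome 11 departed most, with -0.73 for 7 members beside 0.03. On chromosomes 4, 5, 13 and 15 the members' medians were also below 0, at -0.46, -0.28, -0.01 and -0.09. The other loci there had medians of 0.18, 0.02, 0.18 and 0.11.

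For Ago2-/- over Ago2+/+ in thapsigargin all 14 members on chromosome 7 were higher (median 0.25, other loci 0.17), as were both on chromosome 12 (0.47 and 0.54). The 5 on chromosome 10 were all lower (-0.23 and -0.30). Over the 77 members of that contrast Spearman's rho between a member's ratio and the median of the other loci of its chromosome was 0.79, and Pearson's r was 0.33, with Rpl29 and Rps2 far from the rest. The points of a chromosome share 1 value, and all come from the same 2 groups.

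Spearman's rho was 0.42 to 0.79 and Pearson's r 0.22 to 0.59 over the 7 contrasts, which share groups. Subtracting the chromosome's median lowered the members' median absolute deviation in each, for instance from 0.21 to 0.11 for Ago2-/- over Ago2+/+ in thapsigargin and from 0.29 to 0.16 for tunicamycin over DMSO in Ago2-/- cells. It did not remove the shift in the latter, whose median over 77 members was -0.32 before and after. With it, Rpl7, Rpl37a and Rps21 stood at -0.82, -0.66 and -0.69 there and were no longer past the fold, while Rpl29, Rpl34 and Rps18 stayed past it in every contrast that called them. For Ago2-/- over Ago2+/+ in tunicamycin Rpl7 stood at -0.83 and was no longer past it either. Rpl6l, on chromosome 10, was past it only after this step, at -1.18 and -1.08 in these 2 contrasts. What moves the loci of a chromosome together was not tested.

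**Figure D4:**
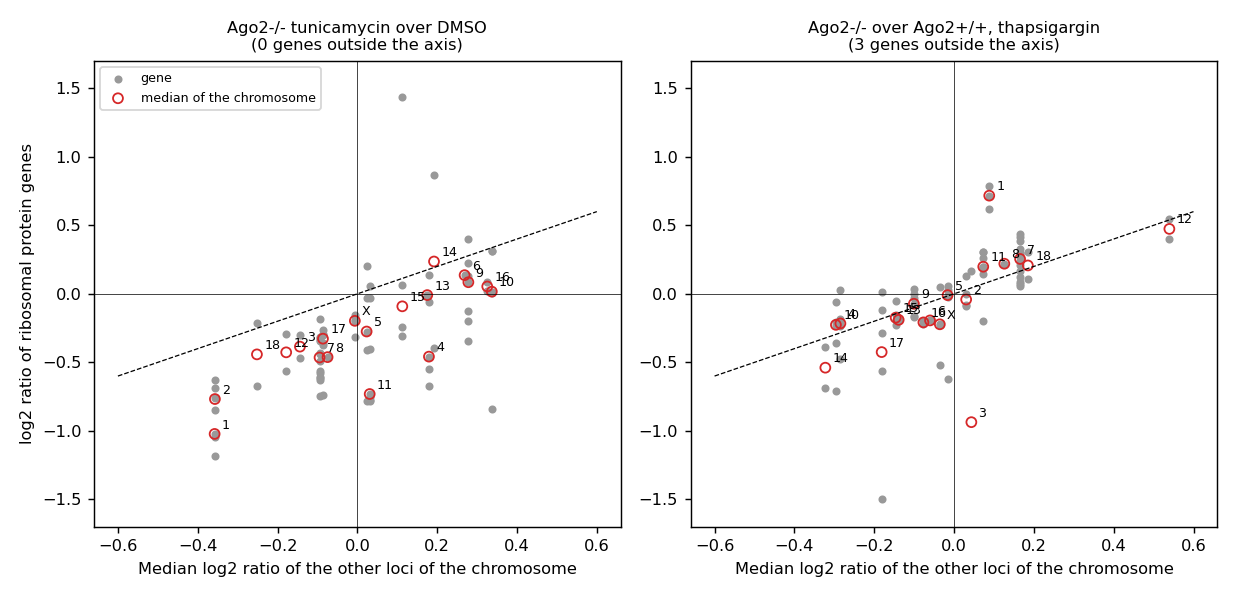
log2 ratio of each ribosomal protein gene (grey) and the members' median per chromosome (red circles, numbered by chromosome) against the median of the other loci of that chromosome, for 2 contrasts; the dashed line marks equality. Members tend to be higher where the other loci of their chromosome are higher in both panels, and on the left most lie below the line, with chromosome 11 farthest from its own median among those with several members.

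The other genes of translation were read against the 12.9% to 17.9% of all loci past a fold of 2. Among 18 translation factors alone at their locus, only Eef1g, an elongation factor subunit, passed the fold, at 1.03 for thapsigargin over DMSO in Ago2+/+ cells (455 and 932 FPKM), and medians ranged from -0.18 to 0.21. None of 10 regulators, among them Mtor, Larp1 and Myc, passed it in any contrast. Of 70 genes of the mitochondrial ribosome 1 to 4 (1.43% to 5.71%) passed per contrast, with medians of -0.18 to 0.03.

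The median of 17 genes of ribosome assembly was -0.45 for tunicamycin over DMSO in Ago2-/- cells and -0.40 for Ago2-/- over Ago2+/+ in tunicamycin. The same 3 (17.6%) were past the fold and lower in both contrasts, a share near the 17.9% and 17.3% of all loci. Rrs1 was also past it, and higher, for tunicamycin over DMSO in Ago2+/+ cells and for Ago2-/- over Ago2+/+ in DMSO. Rrs1, a regulator of ribosome synthesis, had 97.5 FPKM in the DMSO and 32.0 FPKM in the tunicamycin group of Ago2-/- cells, and 91.6 FPKM in the tunicamycin group of Ago2+/+ cells. Polr1b, a subunit of RNA polymerase I, had 53.2, 21.8 and 52.7 FPKM in that order, and Wdr12, of the PeBoW assembly complex, had 53.6, 24.0 and 52.4 FPKM. Rrs1 and Wdr12 lie on chromosome 1 and Polr1b on chromosome 2. Fau, which encodes a ribosomal protein fused to a ubiquitin-like protein, ranged from 982 to 1377 FPKM and passed no contrast.

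No other ribosomal protein gene was among the 5 loci whose levels followed Rpl29 most closely. Over the 6 groups, and among 7521 loci averaging 10 FPKM or more, the highest Pearson's r of log2(FPKM + 1) belonged to Hspb8, Gm43471, Gm11449, Cxcl12 and Pmepa1, all above 0.999. Gm43471 and Gm11449 are near copies of Rpl29, with 95.8% and 96.7% identity, so the split of reads between them and Rpl29 is uncertain. Cxcl12, a chemokine, had 0.0157 and 0.0127 FPKM in the low groups of Rpl29 and 194 to 245 FPKM in the other 4. The lowest r, all below -0.998, belonged to Gm9825, the locus of Xist, Pcna-ps2, Gm15487 and Acyp1. Xist, the RNA of X inactivation, was measured at a locus merged with Gm27733 and Gm27927, with 46.6 and 33.5 FPKM in the low groups of Rpl29 and 0.0574 FPKM at most elsewhere. Such r values rest on 6 points in 2 clusters and describe a contrast of 2 groups with 4.

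Promoters were compared for 60 member genes with 72 RefSeq promoter windows (GRCm38.p6, 250 bases before to 50 after the start). A run of 8 or more C or T on the sense strand, from 40 bases before to 50 after the start, was found in 77.8% of them and in 32.5% of all 32851 windows. CCGGAAG on either strand was found in 36.1% and 8.86%, and AAGATGGC on either strand in 9.72% and 2.75%. The 30 bases centred on the start are shown for the called members with an entry, with the longest run of C and T in capitals. Rps18 is at chr17:33955651-33955680 and Rpl34 at chr3:130730384-130730413, both on the minus strand. Rpl37a at chr1:72711245-72711274, Rps2 at chr17:24720048-24720077 and Rps21 at chr2:180257364-180257393 are on the plus strand.

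Rpl34: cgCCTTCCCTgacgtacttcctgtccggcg
Rpl37a: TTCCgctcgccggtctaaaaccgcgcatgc
Rps18: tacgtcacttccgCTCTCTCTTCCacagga
Rps2: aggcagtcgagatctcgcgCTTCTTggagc
Rps21: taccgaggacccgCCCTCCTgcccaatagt

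The run is 11 bases long for Rps18, 8 for Rpl34, 7 for Rps21, 6 for Rps2 and 4 for Rpl37a. The called members thus include windows with and without a long run near the start.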

How the data were processed

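Total RNA of 18 libraries was sequenced. Per the labels and the study's methods, the authors used FastQC 0.11.7, HISAT2 2.1.0, StringTie 1.3.4d and Cuffdiff 2.2.1 on GRCm38, and the deposited table holds 1 FPKM per locus and group, pooled over replicates. Its columns of the authors' own pairwise comparisons (fold changes, test statistics, p-values, q-values and calls) were not used. Counts and library depths are not given, and whole reads could not be recovered from low values. With a tolerance of 0.1, 26.4% to 44.5% per group came out whole at the best step, far from nearly all. An arbitrary step gives 20%, but the best step was picked for a high share, so these shares are not comparable. Depth is therefore unknown and no interval was computed. Groups follow the titles, with those naming DCR1 taken as Ago2+/+ and those naming AGO2 as Ago2-/-. From the deposited FPKM, log2 ratios were computed with a pseudocount of 1 FPKM, which understates changes of low genes, for loci averaging 1 FPKM or more, using Python 3.11.15, pandas 2.3.3 and NumPy 2.4.6. Near copies were aligned with BLAST 2.17.0 to GENCODE transcripts. The call rule was tested on simulated data. Members, gene lists and tests were chosen with earlier results of these data known. Genes were named by rule: Rpl19 and Rpl29, members past 2-fold, the 5 highest and lowest per subunit, paralogues with their parents, stalk proteins and Rpsa, merged loci past the fold, loci most and least like Rpl29, and named pseudogenes of called members. The near copies, the chromosomes and other names were chosen after their values were seen. Alternatives were other pseudocounts, filters, centring, folds and locus sets.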

Additional observations from a re-analysis of the deposited data

How the results depend on the processing

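No paired analysis was possible because the table holds 1 pooled value per group, and for the same reason no library could be left out, including the 4 whose labels conflict. Counts are given in the order of the 7 contrasts: tunicamycin and thapsigargin over DMSO in Ago2+/+ cells, the same in Ago2-/- cells, then Ago2-/- over Ago2+/+ in DMSO, tunicamycin and thapsigargin. Medians of the members moved by no more than 0.1 under any alternative. A fold of 1.5 gave 5, 7, 13, 6, 5, 13 and 8 members, 3481, 3286, 4398, 3716, 3510, 4269 and 3372 of all loci and 14, 15, 24, 16, 14, 21 and 15 genes of the related lists. Merged loci included, 5, 4, 4, 5, 5, 2 and 4 members were past the fold. A pseudocount of 10 FPKM left 483, 454, 661, 507, 490, 636 and 485 loci and 0, 1, 3, 1, 1, 3 and 0 list genes, and a mean of at least 100 FPKM left 90, 91, 112, 75, 85, 103 and 100 loci and 1, 1, 1, 0, 0, 1 and 0 list genes, since fewer loci then enter. The 6 large subunit sums with merged loci were 45059, 46835, 47837, 48348, 39378 and 46412 FPKM, in the order of the groups.

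The further alternatives were chosen after seeing the data. With near copies added, 0, 1, 2, 0, 0, 1 and 0 members alone at their locus were past the fold, or 0, 1, 3, 1, 1, 2 and 0 with merged loci, where Rpl7a is added, and Rpl34 changed sign, to -0.0751 and -0.102 for tunicamycin and thapsigargin over DMSO in Ago2+/+ cells and to -0.104 for Ago2-/- over Ago2+/+ in DMSO. Centred on the chromosome, 3, 3, 1, 3, 3, 1 and 3 members alone at their locus were past it. In the 2 contrasts with 1 this was Rpl6l (-1.18 and -1.08), and Rpl7 lost its call (-0.82 and -0.83).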
